A study of Mus musculus with 10 samples.

Results

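CpG-rich soft-masked repeats were defined from the reference sequence alone. A member was an autosomal CpG cytosine of the deposited table whose base is written in lower case, the mark of a repeat, in the mouse build mm10, which had at least 18 reference CpGs in the 500 b window centred on it, and which lay outside the region from 1 kb upstream to 100 b downstream of any annotated transcript start. Members at most 100 b apart were joined, and groups of at least 3 CpGs were kept as a run. The rule gave 42900 CpGs, 3.23% of the 1328689 autosomal CpGs of the table, in 4792 runs. A further 4482 CpGs met the sequence rule but stood in groups of under 3 and were left out. The runs held a median of 7 CpGs (3 to 58) over a median of 99 b.

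DNA methylation had been measured by reduced representation bisulfite sequencing (RRBS), which reads CpGs near cuts of the enzyme MspI, in prospermatogonia of fetal testes at GD18. All pools came from C3H/HeN mice and from a selection for Thy1, a surface protein of these cells. The arsenic group, 5 pools, came from dams that drank sodium arsenite in water from GD8 to GD18, and the control group, 5 pools, from dams on water without it. Each pool combined the testes of several embryos, so its level is an average over animals and over every cell that passed the selection. The spread given below is between pools, whose independence beyond their labels was not checked. The 10 pools held 44207245 to 66570870 CpG calls, and the median coverage of a member CpG was 28 to 45 reads per pool.

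Retrotransposons copy themselves through RNA, and their promoters are CpG-rich when young, since methylated CpGs are lost by mutation over evolutionary time. LINE-1 elements of the mouse start with a row of tandem promoter units called monomers, whereas LTR elements begin and end with the same long terminal repeat and carry, just inside the first one, a primer-binding site complementary to the end of a cellular tRNA. In the male germ line most methylation is erased in the fetus and written again in prospermatogonia by DNMT3A and DNMT3L, with DNMT3C and the piRNA pathway directed to the promoters of young retrotransposons.

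The label of likely LTR and LINE elements was checked against the sequence, since no repeat annotation was used. When 300 b around each run were aligned with all the others, 3926 runs fell into 29 families of at least 10 runs with at least 80% identity over at least 150 b to the family's centre, and 649 runs resembled no other run. Tandem copies at a period from 100 b to under 400 b surrounded 1721 runs. A stretch of 18 b matching the complement of a tRNA 3′ end, with at most 1 mismatch, lay in the 1200 b around 561 runs (11.7%) and around 1046 of the 136815 runs of all other CpGs (0.765%). Both features together occurred in 2 runs. The sequence thus held runs with tandem units and runs with such matches, called primer-binding sites below. Of the 4257 runs with a level of 20% or more in control pools, 3913 (91.9%) were in a family and 276 had no family, tandem units or primer-binding site.

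The run with the most CpGs in each of the 6 largest families is shown for what these repeats look like. The plus strand of mm10 is printed, 240 b around the middle of the run, with the CpGs measured in the table in capitals.
Family 1, chr6:126024783-126025022, intron of Ano2: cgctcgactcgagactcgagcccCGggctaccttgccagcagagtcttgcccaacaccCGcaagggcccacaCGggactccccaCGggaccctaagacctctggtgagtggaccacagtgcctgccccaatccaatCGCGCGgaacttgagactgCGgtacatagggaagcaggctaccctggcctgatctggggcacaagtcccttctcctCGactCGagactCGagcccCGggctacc
Family 2, chr2:9212650-9212889, intergenic: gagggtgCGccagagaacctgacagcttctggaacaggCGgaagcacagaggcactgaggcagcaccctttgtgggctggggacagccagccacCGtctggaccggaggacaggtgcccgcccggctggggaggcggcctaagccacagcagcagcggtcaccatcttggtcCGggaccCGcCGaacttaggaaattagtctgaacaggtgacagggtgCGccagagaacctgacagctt
Family 3, chr1:19799471-19799710, intergenic: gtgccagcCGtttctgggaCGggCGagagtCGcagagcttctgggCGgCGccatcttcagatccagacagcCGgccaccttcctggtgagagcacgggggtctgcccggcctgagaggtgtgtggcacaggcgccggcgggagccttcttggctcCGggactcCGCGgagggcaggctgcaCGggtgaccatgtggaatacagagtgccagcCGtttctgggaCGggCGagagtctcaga
Family 4, chr5:70561631-70561870, exon of the non-coding gene Gm42653: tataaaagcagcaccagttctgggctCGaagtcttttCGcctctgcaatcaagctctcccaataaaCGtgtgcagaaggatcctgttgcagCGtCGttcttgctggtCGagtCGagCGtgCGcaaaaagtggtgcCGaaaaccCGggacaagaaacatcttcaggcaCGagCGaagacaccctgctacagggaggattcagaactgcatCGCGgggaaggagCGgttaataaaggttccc
Family 5, chr8:4577022-4577261, intergenic: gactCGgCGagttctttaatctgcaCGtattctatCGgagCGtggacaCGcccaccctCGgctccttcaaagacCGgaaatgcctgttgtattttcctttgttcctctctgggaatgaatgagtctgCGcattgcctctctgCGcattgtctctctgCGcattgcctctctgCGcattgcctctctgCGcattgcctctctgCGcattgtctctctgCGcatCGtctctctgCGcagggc
Family 6, chr9:96163877-96164116, intron of Gk5: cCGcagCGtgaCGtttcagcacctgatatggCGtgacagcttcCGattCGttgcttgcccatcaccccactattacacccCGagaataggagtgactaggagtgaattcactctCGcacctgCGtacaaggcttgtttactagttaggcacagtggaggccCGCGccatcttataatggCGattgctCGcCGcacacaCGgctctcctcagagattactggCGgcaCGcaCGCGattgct
Of these 6 families, 1 to 3 had the most runs with tandem copies, 1071 of 1406, 423 of 566 and 198 of 471. In the family 1 run the 792 b that could be compared were 97.3% identical to the sequence 208 b further on. The same comparison gave 64.6% at 212 b for the family 2 run and 44.8% at 204 b for the family 3 run, a comparison at one fixed distance that allows no gaps. In families 4 to 6, tandem copies at a period from 100 b to under 400 b surrounded 0 of 347, 1 of 173 and 0 of 150 runs.

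Primer-binding sites, known here only as sequence matches, were common in some families and rare in others. The commonest 18 b site of each kind is given as read on the strand of the match, with the place of 1 copy.
tRNA-Phe, family 4, chr1:10925080-10925097, minus strand: tggtgccgaaacccggga
tRNA-Ile, family 4, chr1:10924796-10924813, minus strand: tggtggcccgtacgggga
tRNA-Phe, family 7, chr2:12045936-12045953, minus strand: tggtgctgaaatccggga
tRNA-Pro, family 13, chr1:27730018-27730035, plus strand: tgggggctcgtccgggat
The first of these stood exactly in 133 of the 347 runs of family 4, and 225 runs (64.8%) had a match to tRNA-Phe, the known primer of the intracisternal A particles, a group of mouse LTR elements. The site is not particular to tRNA-Phe by sequence, since it is also exactly complementary to the end of a gene listed as tRNA-Ser, and 203 of the 225 runs matched both at the same place. Among all members 332 of the 396 runs with a tRNA-Phe match did so, and no run matched tRNA-Ser alone. Pairs of a tRNA-Phe and a tRNA-Ile match were sought on the same strand only. In family 4 the tRNA-Ile match lay downstream in all 189 such pairs, at a median distance of 271 b. Which match of a pair serves as a primer-binding site was not tested. Family 9 held the same 2 matches, with tRNA-Ile in 77 of its 79 runs and the same median distance in 52 pairs. Family 7 had a tRNA-Phe match in 49 of 105 runs, and family 13 a match to tRNA-Pro, the primer of murine leukaemia viruses, in 28 of 46 runs. In families 7 and 12 the centre sequence also recurred on the same strand 3 to 9 kb away in the genome. It did so at 25.3% of 704 loci and 19.5% of 4380 loci, the arrangement of the terminal repeats at both ends of an LTR element. Families 6, 10 and 11 gave 14.6, 11.2 and 7.94%. Families 4, 9 and 13, with primer-binding sites in most runs, gave 0.367, 0.221 and 1.33%. Family 12 had a site in 2 of 50 runs, so primer-binding sites and such recurrence mostly did not fall in the same families.

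The CpG-rich repeats were mostly methylated in the control pools. Their mean level, the percentage of reads that kept a C, was 73.4, 72.6, 73.5, 73.1 and 75.1% in control pools 1 to 5, or 73.5% ± 0.950 (SD, n = 5). CpG-poor soft-masked repeats, with fewer than 18 CpGs in the window, had 71.4% ± 1.07 in the same pools. CpG-dense sequence outside repeats and promoters had 16.3% ± 0.143, and all autosomal CpGs had 45.8% ± 0.581. The members therefore stood with other repeats and not with other CpG-dense sequence, and the values of these last 2 classes did not overlap with theirs in any of the 10 pools.

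In the arsenic group the members had 70.4, 72.9, 73.1, 76.3 and 78.7% in pools 1 to 5, or 74.3% ± 3.22 (SD, n = 5). Arsenic pool 1 lay below every control pool and arsenic pools 4 and 5 lay above every one, so the groups overlapped and the arsenic pools were the more spread. The difference of group means was 0.745 points, below the SD of either group. It was 1.70 points without arsenic pool 1 and −0.357 points without arsenic pool 5, so its direction rested on 1 pool. CpG-poor repeats gave a difference of −0.0783 points and all autosomal CpGs −0.608 points.

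**Figure D1:**
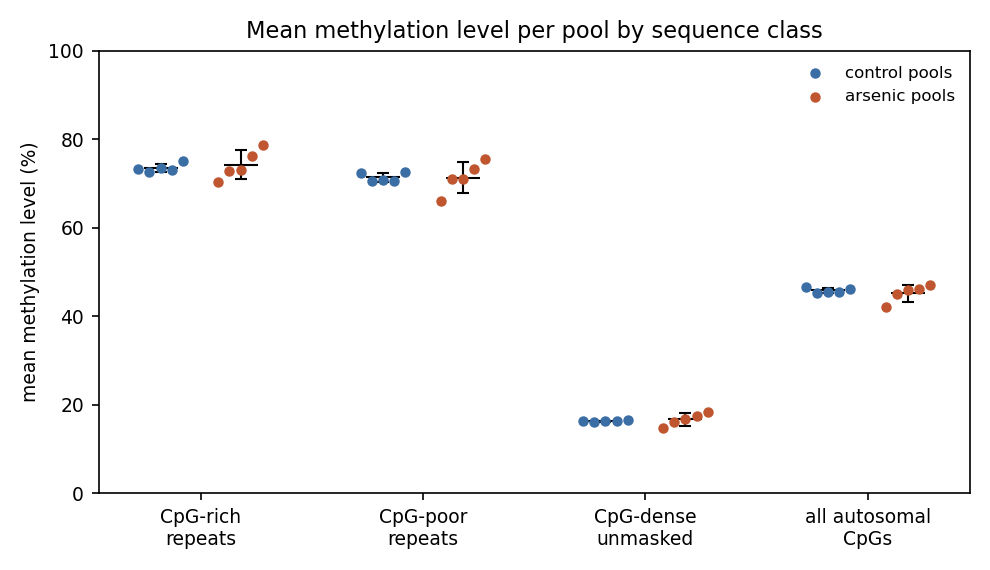
Mean methylation level in percent (y axis) of 4 classes of CpG (x axis), 1 point per pool in the order of pool numbers, with bars for the mean and SD of 5 pools. CpG-rich repeats sit at 73.5% in control and 74.3% in arsenic pools, beside CpG-poor repeats and far above CpG-dense unmasked sequence at 16.3%.

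The same pools stood apart at other sequence. Promoters of 8 of 11 listed maternally imprinted genes with measured CpGs, which male germ cells leave unmethylated while somatic cells hold a methylated maternal copy, had 32.9 to 42.8% in control pools, 29.1% in arsenic pool 1 and 55.4% in arsenic pool 5. Promoters of 9 of 13 listed germline genes, methylated in somatic cells, had 51.2 to 60.4%, 43.8% and 68.9%. The means of both lists were thus lowest in arsenic pool 1 and highest in arsenic pool 5, as the repeats were. Many single genes did not follow. In arsenic pool 5, Snrpn, Zrsr1, Mcts2, Peg13, Mael and Tdrd1 were within the control range and Ddx4 was below every control pool. In arsenic pool 1, Plagl1, Nnat, Zrsr1, Tdrd1, Hormad1, Asz1 and Slc25a31 were within the control range. Only Mest, Peg10, Dazl, Sycp1 and Tex101 were below every control pool in arsenic pool 1 and above every one in arsenic pool 5. The lists lay well above 0 in every pool, and the share of cells other than prospermatogonia was not measured. The part of these values in the levels of the repeats was not tested.

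The level of single runs had 2 separate ranges. In control pools 535 runs were under 20%, 336 between 20 and 60%, 1770 between 60 and 80%, and 2151 at 80% or more. The range went with the length of the soft-masked block that held the run. Of 724 runs in blocks of under 100 b, 509 (70.3%) were under 20%, whereas 25 of 1205 were in blocks of 100 b to under 1000 b, 0 of 876 in blocks of 1000 b to under 5000 b and 1 of 1987 in longer blocks. In those longest blocks 95.5% of runs had 60% or more. Of the runs in blocks of under 100 b, 436 of 488 within 5 kb of a transcript start were under 20%. Farther from a start, 73 of 236 were under 20% and 123 had 60% or more, so block length alone did not separate the ranges.

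**Figure D2:**
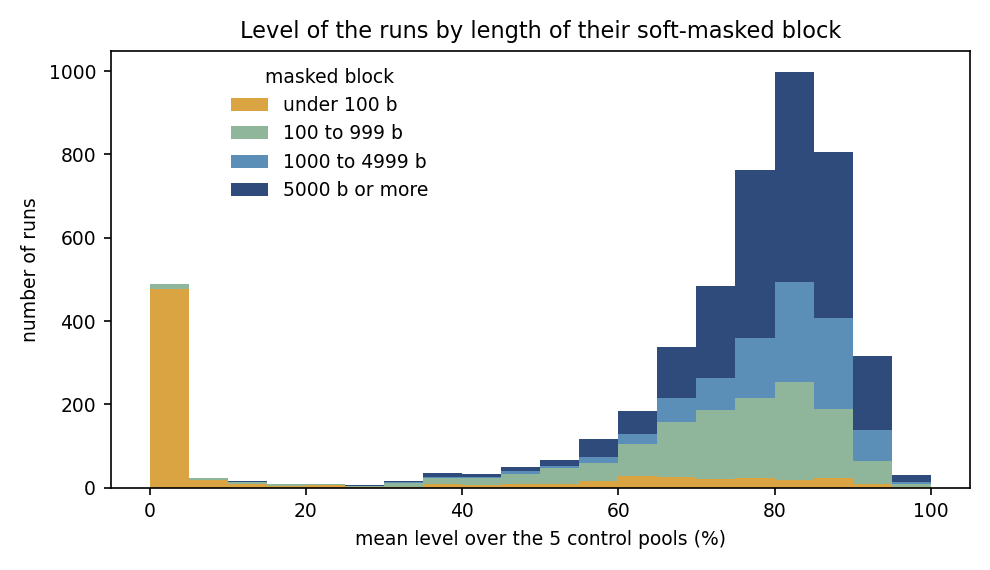
Number of runs (y axis) by mean level over the 5 control pools in percent (x axis, steps of 5 points), stacked by the length of the soft-masked block that holds the run. Runs in blocks of under 100 b make up nearly all of the 535 runs under 20%, and longer blocks fill the range from 60% up.

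The runs under 20% mostly lay in short masked stretches and mostly resembled no other run. Their median block was 27 b, the sequence around them was 15% masked at the median, and 500 of the 535 resembled no other run. Of them 456 (85.2%) lay within 5 kb of a transcript start, 252 in exons, 204 in introns and 79 between genes. Table CpGs within 500 b of them that were not members had a median level of 1.20%. Of the 535, 509 lay in a block of under 100 b and 26 in a longer one, 13 were in a family, 3 had a primer-binding site and 1 had tandem units, so the label of LTR and LINE elements was not borne out by sequence for most of them. Without runs in blocks of under 100 b the control level of the members was 78.6% and the group difference 0.769 points.

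The 5 runs with the lowest control level, among those with at least 6 CpGs, all had 0% in each control pool, which at the mean coverage of the Ubn2 run allows a level of up to 9.71% (3 reads, counting error only). They lay in exons of Ubn2, Tfap2a, Aard and the non-coding gene Gm45623 and in an intron of C230034O21Rik, 1137 b from the start of Fat4, and their masked blocks were 24 to 27 b long. The run of Ubn2, a chromatin protein gene, is printed with 120 b to show a masked stretch of this kind.
Ubn2, chr6:38434365-38434484: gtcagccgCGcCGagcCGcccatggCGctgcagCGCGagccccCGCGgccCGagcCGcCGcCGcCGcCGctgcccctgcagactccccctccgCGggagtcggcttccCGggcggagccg
In the arsenic pools it had 1.11, 0, 0, 0 and 1.61%. The run of Gm45623 had 5.13, 1.89, 7.82, 0 and 7.38%, with a limma adjusted p of 0.688. Since these runs were chosen for a control level of 0%, no arsenic pool could lie lower. Over all runs under 20% the mean was 1.94% ± 0.0906 in control and 2.07% ± 0.182 in arsenic pools.

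CpG density and level were related in 2 opposite ways. Member CpGs with 18 to 19 reference CpGs in the window had 74.5% ± 1.05 in control pools, and those with 25 to 29 had 79.2% ± 1.01. Those with 40 or more, 1761 CpGs, had 3.59% ± 0.132. At the edge of the density rule the level did not step, with 70.9% for CpGs with 17 reference CpGs and 71.8% for those with 18. These 2 values count all autosomal soft-masked CpGs outside promoters, also those in groups of under 3, so they are not levels of members alone. Members read on both strands, 9086 CpGs, differed by a median of 5.41 points between strands. In runs at 60% or more, 100 of 37673 CpGs were under 5% in all 10 pools.

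The families differed in level by more than the pools did. Family 1, the tandem family with 1406 runs, had 79.7, 79.8, 81.2, 80.7 and 82.3% in control pools, or 80.7% ± 1.08. Family 2, also tandem, with 566 runs, had 73.6, 70.9, 70.8, 70.5 and 74.5%, or 72.1% ± 1.83. Family 1 was thus the higher in all 5 control pools, by 8.66 points ± 1.75 (SD over pools). Family 3, with tandem units around 198 of 471 runs, had 76.9% ± 0.818.

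Among the families other than 1 to 3, family 4 with its tRNA-Phe site had 81.5% ± 1.54 and family 5 had 88.6% ± 1.01, the highest of the 14 largest families. Family 6 had 72.4% ± 1.19. Family 9 had 79.2% ± 2.08 and family 13, with the tRNA-Pro site, 84.2% ± 0.918. The lowest were family 8 at 61.8% ± 1.60 and family 14 at 41.4% ± 0.814. Family 14 ranged from 1.06 to 85.4% between its 35 runs, and 25 of them were under 60%. By comparison 28 of the 1406 runs of family 1 (1.99%) and 88 of the 566 of family 2 (15.5%) were under 60%. Grouped by feature, runs with tandem units had 79.3% ± 1.01 and runs with a primer-binding site 80.3% ± 1.39. Within a pool the latter were higher in all 5 control pools, by 0.978 points ± 0.829 (SD over pools), and in 3 of 5 arsenic pools, by 0.123 points ± 0.347.

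**Figure D3:**
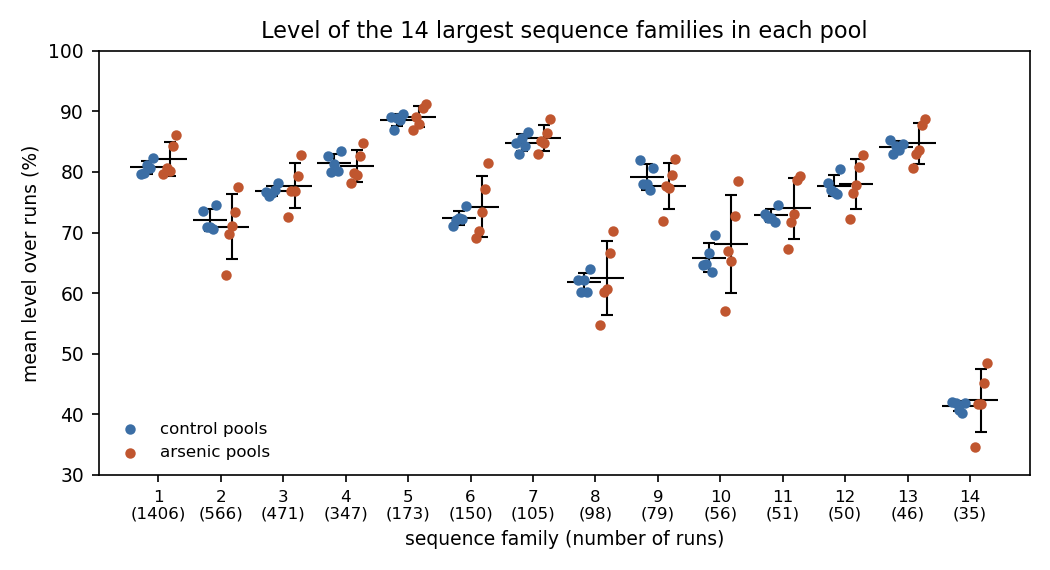
Mean level over runs in percent (y axis, from 30 to 100%) of the 14 largest sequence families (x axis, with the number of runs), 1 point per pool and bars for mean and SD of 5 pools. Family 5 is highest and family 14 lowest in both groups, and arsenic pool 1 is the low point in family 2 at 63.1%.

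The arsenic pools departed from the controls by different amounts in different families. In family 1 they had 79.7, 80.6, 80.2, 84.2 and 86.0%, and in family 2 they had 63.1, 69.7, 71.1, 73.4 and 77.6%. Arsenic pool 1 differed from the control mean by −1.03 points in family 1 and by −9.01 points in family 2, and arsenic pool 5 by 5.28 and 5.49 points. Families 1 and 2 thus lay 16.6 points apart in arsenic pool 1 and 6.10 to 10.3 points apart in the control pools. The difference of that pool was −7.11, −7.26 and −8.82 points in families 8, 9 and 10, and −3.28 and −1.68 points in families 4 and 5. This is 1 pool, and no test over pools can be made of it. It had the most CpG calls of the 10 pools but the smallest share of them in members, 2.71% against 3.002 to 3.40% in the others, and a median coverage of 34 reads at members against 38 over all CpGs. The part of this in its levels was not tested.

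Within a family the level changed from CpG to CpG. Each run was aligned to the centre of its family, and CpGs at the same place were averaged where at least 20 runs had one. Family 1 gave 18 places, from 70.7% ± 1.89 to 90.6% ± 0.601 in control pools. Family 2 gave 12, from 58.7% ± 1.54 to 82.7% ± 1.76, and arsenic pool 1 was under the control mean at all 12, with differences of −11.6 to −4.17 points. In family 1 it was under it at 13 of 18 places, with differences of −3.53 to 0.258 points. Family 5 ranged from 82.0 to 94.6% over 20 places. These profiles rest on different runs at each place, since RRBS does not read every copy.

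**Figure D4:**
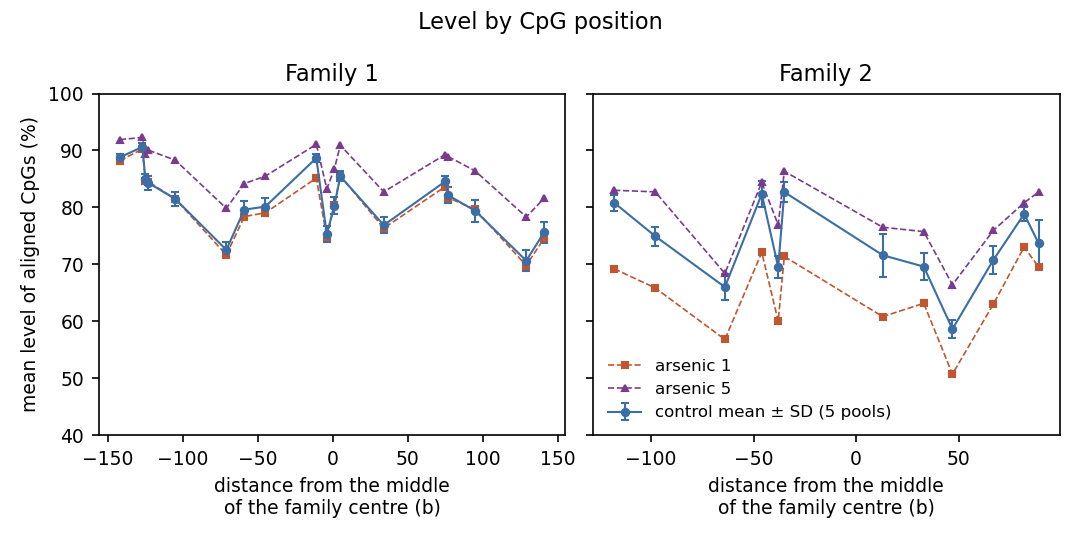
Mean level in percent (y axis, from 40 to 100%) of CpGs at the same place of family 1 (left) and family 2 (right), by distance in b from the middle of the family centre (x axis); points with bars are the mean and SD of 5 control pools, and dashed lines are arsenic pools 1 and 5. Arsenic pool 1 runs along the controls in family 1 and below them at all 12 places of family 2.

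Closeness to the centre had no common relation to level. The runs of a family were divided into 3 equal parts by their identity to the centre. In family 2 the part least like it had 75.1% ± 1.78 in control pools, the middle part 71.9% ± 1.87 and the part most like it 69.2% ± 1.94. Family 3 had 78.1, 77.8 and 74.8% in the same order, and family 1 had 79.5, 82.4 and 80.4%. The measured copies are also only part of each family. The centre of family 1 matched 4679 loci of the genome at 80% identity or more over 200 b, against 1406 runs, and that of family 12 matched 4380, against 50.

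No run differed between the groups by the test across all runs. limma called 0 of 4792 runs and 0% of the 141607 runs of the table for which the adjusted p had to be under 0.05 and the group means 10 points apart, and the lowest adjusted p was 0.688. At an unadjusted p under 0.05, 152 member runs (3.17%) were higher in the arsenic group against 1.98% of all runs, and 90 (1.88%) were lower against 5.08%. Without arsenic pool 5 these counts were 107 higher and 147 lower, so the balance among the members turned. Over all runs they were then 2112 higher and 6699 lower. Without arsenic pool 1 they were 250 and 64 among the members. Over all runs they were then 5268 and 5154, so there the balance turned as well. Every arsenic pool was above every control pool in 25 member runs (0.522%), against 0.275% of all runs, and below in 8 (0.167%), against 1.05%. Of the member runs 2700 (56.3%) had the higher mean in the arsenic group, with a median difference of 0.449 points, and over all runs 41.3% did, with a median of −0.534 points. Without arsenic pool 1 these shares were 64.4% and 48.05%, and without arsenic pool 5 they were 46.4% and 37.1%.

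The run with the smallest p among those higher in the arsenic group lay in an exon of Gsx2, a homeobox gene of the forebrain, at chr5:75076132-75076236. It had 0, 0, 0, 0.641 and 0% in control pools and 5.40, 1.78, 4.82, 1.85 and 2.11% in arsenic pools. The groups did not overlap, the difference was 3.06 points, and the log2 of methylated over unmethylated reads differed by 2.96 ± 0.47 (SE) with a limma adjusted p of 0.688. It is one of the short masked stretches, with a block of 51 b. The next was a family 1 run of 7 CpGs at chr15:4865212-4865294, 17866 b from the nearest start. It had 87.8, 85.5, 83.8, 79.6 and 85.0% against 93.5, 94.1, 89.8, 95.2 and 93.2%, a difference of 8.82 points. A further family 1 run, at chr6:10240833-10240930, had 76.4% ± 6.44 in control and 89.6% ± 3.70 in arsenic pools. These last 2 runs share the tandem unit shown for family 1, as the 160 b around them let a reader see.
chr15, chr15:4865174-4865333: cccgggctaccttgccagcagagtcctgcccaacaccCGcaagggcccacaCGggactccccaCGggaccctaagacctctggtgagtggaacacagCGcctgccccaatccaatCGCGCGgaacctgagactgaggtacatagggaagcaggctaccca
chr6, chr6:10240802-10240961: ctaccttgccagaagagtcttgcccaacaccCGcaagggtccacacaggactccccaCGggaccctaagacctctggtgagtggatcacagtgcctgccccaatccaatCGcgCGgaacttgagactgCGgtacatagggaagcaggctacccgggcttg

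The 3 runs with the smallest p among those lower in the arsenic group were all close to 0. One in an exon of Gm20696, 343 b from a start of the forkhead gene Foxp1, had 1.72% ± 0.854 in control and 0.232% ± 0.341 in arsenic pools, with no overlap. One in an intron of Phactr1 had 3.92% in control pool 3 and 0% in the other 9 pools. Without control pool 3 all pools there were at 0% and the fitted log2 difference was still −1.41, which then came from the depth alone through the 1 added to each count, so its place in this ranking is no difference in level. The third, at chr13:21234044-21234071, lay over a tRNA-Ala gene, one of 4 runs over tRNA genes, which had control levels of 0 to 2.77%. It had 0.641 to 1.19% in control pools and 0, 0, 0.450, 0 and 0% in arsenic pools. The limma adjusted p of each was 0.688.

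The 5 runs with the largest SD over control pools, among those with at least 6 CpGs, had an SD of 20.3 to 23.2 points. These 5 belonged to families 2, 6 and 10. Their mean coverage was 19.9 to 26.8 reads, against a median of 35.3 over all member runs, and the part of depth in their SD was not tested. The most variable, a family 6 run of 15 CpGs at chr14:75067049-75067304, 51149 b from the nearest start, had 31.3, 28.3, 68.4, 78.7 and 66.9% in control pools and 78.8, 55.0, 66.8, 72.8 and 76.3% in arsenic pools. Control pools 1 and 2 were low, and every arsenic pool lay above them. A family 2 run at chr1:166475281-166475392 had 69.3, 30.6, 20.9, 34.5 and 65.0%, and another at chr10:55574867-55574989 lay between 34.0 and 81.3%. Both others belonged to family 10 and had 1 control pool far down, at 36.4% near Zfp979 and at 40.1% near Gm14267. Among the 4257 runs at 20% or more, the median SD was 5.43 points over control pools and 6.11 points over arsenic pools. Counting error alone, with a run's mean coverage taken as its number of reads, had a median SD of 6.98 and 6.41 points. This overstates counting error where different reads cover the CpGs of a run. It therefore cannot show whether the pools spread by more than counting error. Arsenic pool 1 was the lowest of the 5 arsenic pools in 40.8% of these runs and arsenic pool 5 the highest in 46.6%.

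**Figure D5:**
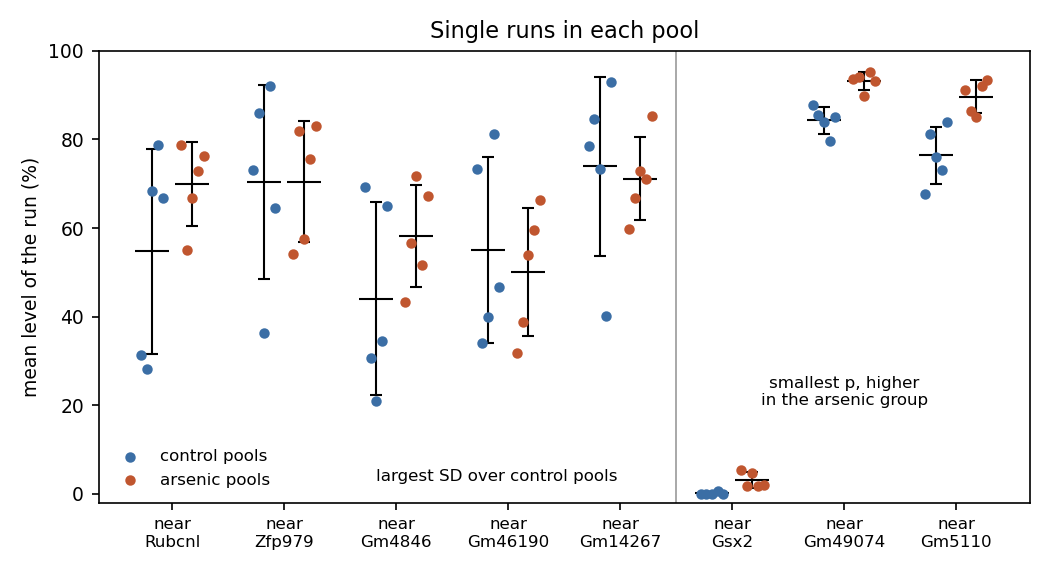
Mean level in percent (y axis) of 8 single runs (x axis, named by the nearest transcript start), 1 point per pool with bars for mean and SD of 5 pools. The 5 runs left of the line spread over 20 points SD or more in control pools, and in the 3 runs right of it the arsenic pools lie above all control pools.

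The runs with the most CpGs show how even a single long repeat can be between pools. All 3 belonged to family 1. The one printed above, 58 CpGs in an intron of the chloride channel gene Ano2, had 84.3% ± 1.64 in control and 85.5% ± 3.33 in arsenic pools. The others, with 51 and 45 CpGs, had 87.9% ± 2.60 and 88.0% ± 1.42, and 87.1% ± 2.46 and 88.3% ± 2.74. The printed runs of families 2 to 6 had 78.2, 78.6, 81.3, 91.2 and 72.2% in control pools and 79.2, 75.4, 82.6, 90.5 and 74.6% in arsenic pools, differences no larger than the SD of the arsenic pools.

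Differentially methylated cytosines (DMCs) were counted with the thresholds of the study, 10 points or more between the groups and a q value up to 0.01 in a logistic regression that treats reads as units. Members held 757 hyperDMCs (1.76%, against 0.784% of all 1348062 CpGs) and 414 hypoDMCs (0.965%, against 1.48%). The members thus had more gains than losses where the whole table had more losses than gains. Without arsenic pool 5 the members had fewer gains than losses, with 497 hyperDMCs and 613 hypoDMCs. The counts over all CpGs without that pool are not given here, so the contrast with the whole table cannot be read for it. With all pools the hyperDMCs lay in 543 member runs and the hypoDMCs in 329, and 28 runs held both. At least 3 hyperDMCs lay in 46 runs and at least 3 hypoDMCs in 17. The same counts over all runs of the table were not made. By family, family 1 had 371 hyperDMCs (2.47%) and 99 hypoDMCs (0.659%), family 2 had 57 (1.43%) and 88 (2.21%), and family 4 had 17 (0.468%) and 25 (0.688%). When the spread between pools entered the test, through an overdispersion factor and an F test, 0 members were called in either direction, and 2014 (4.69%, against 5.40% of all CpGs) had an unadjusted p under 0.05. limma per CpG called 0 as well, with 2881 members (6.72%, against 6.002% of all CpGs) at an unadjusted p under 0.05. Every arsenic pool was above every control pool at 175 members (0.408%, against 0.219% of all CpGs) and below at 116 (0.27%, against 0.474%).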

How the data were processed

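RRBS of 10 pools was analysed. As the labels and the study's methods state, reads were trimmed by the authors with Trim Galore 0.6.5, aligned to mm10 with Bismark 0.22.3, which keeps reads with 1 best place, and tabulated by CpG with methylKit 1.22.0. The deposited table holds counts per CpG and pool (coverage, Cs and Ts), at least 10 reads in every pool. It was used as deposited: 1348062 CpGs on chromosomes 1 to 19, X and Y, of which 1347905 fell on a reference CpG. Levels were Cs over coverage, and means over CpGs or runs weighted each equally.

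Starts and exons came from GENCODE M21, sequence and tRNA genes from RefSeq GRCm38. Families were built with BLAST 2.17.0. limma 3.58.1 in R 4.3.3 tested the log2 of methylated over unmethylated reads of a run, 1 added to each, over all runs. CpGs were tested by logistic regression with Benjamini-Hochberg adjustment. The tests were checked on simulated data. The members, lists and named runs (smallest p in each direction, lowest level, largest control SD, most CpGs per family and of all runs, none from chromosome 18) were chosen with earlier results of these data known. Same-numbered pools were not paired by the labels, and their deviations from the group means correlated at −0.0190 to 0.0377 over the member CpGs. Counting error rests on reads without molecular identifiers.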

Additional observations from a re-analysis of the deposited data

Results flagged for a closer look

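In 4 of 56 sets of 5 pools belonging to a named run, a family or all members, 1 pool stood far from the other 4, its gap to the nearest exceeding Dixon's 95% limit for 5 values. For normally distributed values, chance alone puts about 1 set in 20 past this limit. That rate does not apply to a set with 4 pools at 0% and 1 above it, which always passes. In the family 6 run in an intron of Gk5, control pool 2 had 54.7% and the next lowest 73.9%. Near 0, the run in an exon of Gsx2 had 0.641% in control pool 4 and 0% in the other control pools, and the run in an intron of Phactr1 had 3.92% in control pool 3 and 0% in the others. The run over a tRNA-Ala gene on chromosome 13 had 0.450% in arsenic pool 3 and 0% in the other arsenic pools.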

How the results depend on the processing

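The difference of group means, 0.745 points, was 0.106 points weighted by coverage, 0.428 points at a coverage of at least 30 and 0.593 to 0.786 points under the other settings that kept all pools. Leaving out 1 pool moved it between −0.357 points (without arsenic pool 5) and 1.70 points (without arsenic pool 1). The fit with the replicate number as a block gave 0.745 points, with an SD of 2.70 points between same-numbered pools, and limma with this block called 0 runs. The control level of 73.5% became 75.7% at a coverage of at least 20 and 76.2% at 30, 74.6% weighted by coverage, 69.1% as a mean over runs, 76.2% with wider promoters left out, and 78.6% without runs in masked blocks of under 100 b, an alternative chosen after seeing the data. Leaving out 1 control pool gave 73.1 to 73.8%. limma called 0 member runs in each of its 17 alternatives.

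The DMC counts depended on the test and on depth. HypoDMCs (414) became 0 with overdispersion, 0 with limma, 93 at 20 points, 263 at a coverage of at least 20 and 2 with reads thinned to 10. HyperDMCs (757) became 0, 0, 245, 478 and 2. Leaving out 1 pool gave 328 (without arsenic pool 1) to 613 (without arsenic pool 5) hypoDMCs and 497 (without arsenic pool 5) to 1028 (without arsenic pool 1) hyperDMCs, so without arsenic pool 5 losses outnumbered gains among the members. Sites under 10 reads in any pool, copies whose reads have no single best place, and repeats without MspI sites are outside these values.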
